A study of Mus musculus with 8 samples.

Results

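The genes described here are 10 neuropeptide precursor genes of the forebrain: Trh, Adcyap1, Cck, Nts, Cartpt, Crh, Sst, Vip, Tac2 and Npy. They were chosen by name, with earlier results of these data known. All 10 had values among the 14353 genes listed for ribosome-bound and total mRNA of the mouse ventral pallidum (VP). Every mouse was homozygous for VGluT2-Cre and heterozygous for the Rpl22 (RiboTag) allele, and none was treated. Cre is driven from the locus of Slc17a6, the vesicular glutamate transporter vGluT2, and switches on a hemagglutinin tag on the ribosomal protein RPL22, so the tag also stays in cells that used the locus only earlier in life. The TRAP library holds mRNA pulled down with the tagged ribosomes. The INPUT library holds mRNA of the VP lysate before the pull-down, from neurons and glia alike. A pool combined tissue of males and females, at least 7 and at most 11 animals, with a total of 38. The mice of pool VP1.6 were 9 to 12 weeks old, and those of the other pools (VP2.2, VP2.6, VP2.11) 10 to 16 weeks. Where 4 values of a gene follow each other they are in the order VP1.6, then VP2.2, then VP2.6, then VP2.11. Each of the 4 pools gave 1 TRAP and 1 INPUT library from the same homogenate, so n = 4 libraries per fraction.

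A neuropeptide is cut from a larger precursor protein inside the secretory pathway, stored in dense-core vesicles and released to act on receptors that are mostly coupled to G proteins. Many forebrain neurons make 1 or more such peptides next to glutamate or GABA, and the precursor mRNAs are therefore widely used as markers of neuron classes. SST and NPY mark classes of GABAergic interneurons in the cortex and striatum, and VIP marks a class in the cortex. TRH, PACAP and CRH are best known from hypothalamic neurons, although each of them is also made elsewhere in the forebrain.

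The fraction was checked first. Slc17a6 was at 143 ± 13.6 CPM (read counts scaled by library size, mean ± SD) in TRAP and 25.9 ± 10.3 CPM in INPUT, with a log2 fold change of 2.55 ± 0.24 (SE) and an adjusted p of 7.30e-06 (limma with the pool as a block, Benjamini-Hochberg over 14249 genes tested). Slc32a1, the vesicular GABA transporter, was lower in TRAP, at a log2 fold change of -1.26 ± 0.30 and an adjusted p of 0.00548 (limma). Without VP1.6 it was at -0.92 with an adjusted p of 0.0583. The genes of the GABA-synthesizing enzymes, Gad1 and Gad2, stood at 0.30 ± 0.30 and -0.05 ± 0.30 and were not called. Total read counts are not in the values used here. Steps left by whole reads put the effective size of the TRAP libraries at about 11.6 M reads (VP2.2) and 11.9 M (VP2.6) and that of the INPUT libraries at about 35.0 M and 23.7 M. The depth of VP1.6 and VP2.11 is unknown. Each library had a Pearson's r of at least 0.939, the value of TRAP VP2.11, with the mean of the others in its fraction, over genes that are not independent replicates. Nothing in the labels gives a separate batch.

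Of the 10 precursor genes, 2 were higher in TRAP than in INPUT (Trh and Adcyap1) and 5 were lower (Cartpt, Sst, Vip, Tac2 and Npy). Cck, Nts and Crh were not called. Of all 14249 genes tested, 32.2% were called in either direction, 15.4% as higher and 16.8% as lower. The 10 genes had a median log2 fold change of -1.31, against -0.05 for all genes tested. For 8 of the 10 the TRAP and INPUT libraries did not overlap, 2 with TRAP above and 6 with TRAP below, and the same held in either direction for 47.7% of all genes tested. These are bulk libraries, of ribosome-bound mRNA in TRAP and of total mRNA in INPUT. A lower level can mean, among other things, fewer cells of a type or less RNA per cell, and these cannot be told apart.

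**Figure D1:**
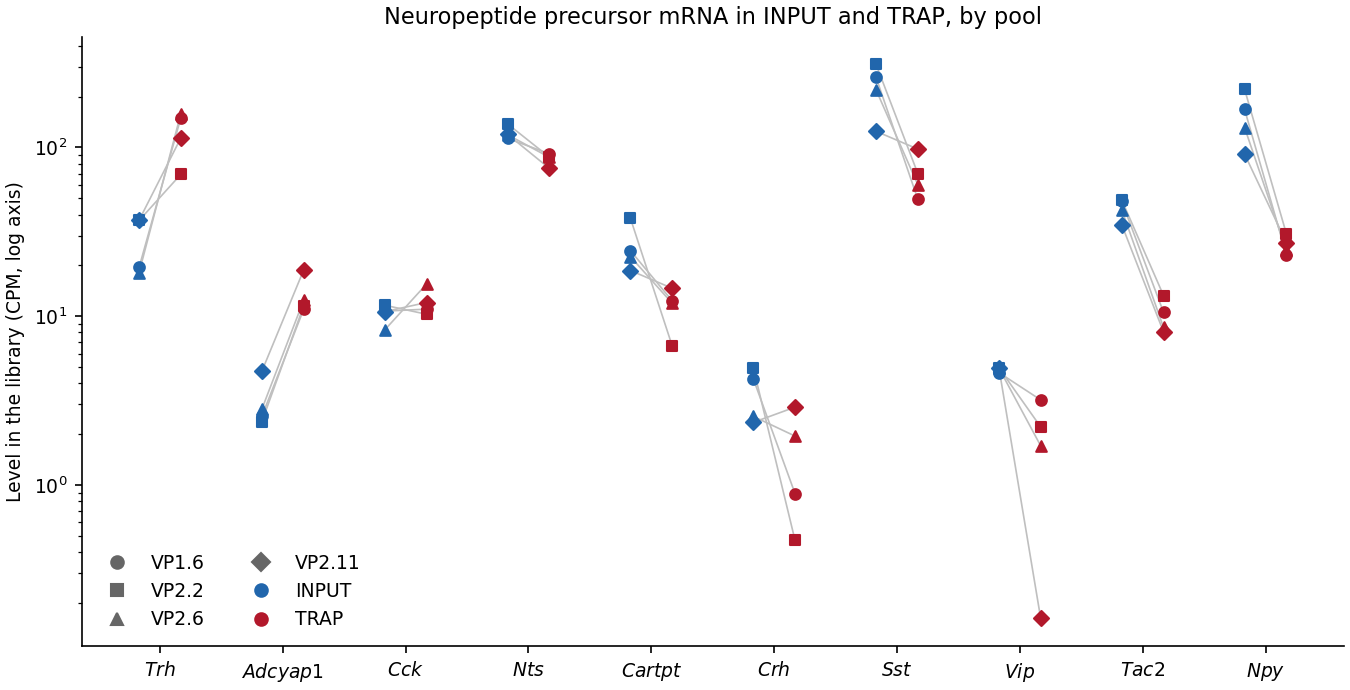
Level of each precursor mRNA in the 8 libraries, in CPM on a log axis. Blue symbols are INPUT and red symbols TRAP, the symbol gives the pool, and a grey line joins the libraries of a pool. Trh and Adcyap1 rise from INPUT to TRAP in all 4 pools, the 4 lines of Npy, Tac2, Sst, Vip, Cartpt and Nts go down, and those of Cck and Crh go both ways.

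Several of these genes are textbook targets of cyclic AMP signalling, and a site upstream of 4 of them is shown here so that genes higher in TRAP can be set beside genes that are lower. Each line gives 30 bases, 5′ to 3′ on the strand of the gene (RefSeq, GRCm38.p6). Capitals mark the cyclic AMP response element TGACGTCA, or TGACG or its reverse complement CGTCA where only those letters are present.
Sst (chr16:23890874-23890903, minus strand): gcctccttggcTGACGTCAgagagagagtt
Cartpt (chr13:99900777-99900806, minus strand): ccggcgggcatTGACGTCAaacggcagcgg
Trh (chr6:92244729-92244758, minus strand): ccccggctctgcCGTCAgcgcccctgcatt
Adcyap1 (chr17:93198914-93198943, plus strand): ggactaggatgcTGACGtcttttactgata

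Relative to the RefSeq start, TGACGTCA begins 48 bases before that of Sst and 112 bases before that of Cartpt, both lower in TRAP. The annotation used for the gene positions here (GENCODE) starts both genes further upstream, by 114 bases in Sst and 408 in Cartpt, so it places these sites inside their 5′ UTR. In Trh and Adcyap1, both higher in TRAP, only the 5 letters of CGTCA or TGACG were found, beginning 96 and 91 bases before a RefSeq start that is the same in both annotations. In the 250 bases before a RefSeq start, TGACGTCA was present on either strand in 2 of the 9 precursor genes that had a window and in 1.55% of all 32851 windows. TGACG, which TGACGTCA contains, was present in 7 of the 9 genes and in 17.8% of all windows. The 7 were Adcyap1, Cartpt, Cck, Nts, Sst, Trh and Vip. Vip, lower in TRAP, had only the 5 letters, as Trh and Adcyap1 did. Npy and Tac2, also lower, had neither form. A total of 6 motifs was searched on both strands, and this element was chosen for display after its matches were seen. The others were CAGCACC (0 of the 9 genes, 5.73% of windows), CAGATG (3 genes, 14.4%), TGACTCA (1 gene, 4.46%) and TATAAA (2 genes, 12.4%). These matches are a description of letters, and no test was made of them.

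Trh encodes the precursor of thyrotropin-releasing hormone, a tripeptide best known for its control of the pituitary (ENSMUSG00000005892, chr6:92242061-92244650 on GRCm38, minus strand). Its level in TRAP was 150 CPM in VP1.6, 69.2 in VP2.2, 158 in VP2.6 and 114 in VP2.11. In INPUT it was 19.4, 36.9, 18.1 and 37.0 CPM in the same order. The lowest TRAP library was above the highest INPUT library. The fold change was 4.44 and the log2 fold change 2.15 ± 0.32 (SE), with a 95% interval of 1.47 to 2.83 and an adjusted p of 0.000270 (limma). The pools differed in size: TRAP minus INPUT was 2.95 and 3.13 on the log2 scale in VP1.6 and VP2.6, but 0.91 in VP2.2 and 1.62 in VP2.11.

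Adcyap1 encodes the precursor of PACAP, a peptide related to VIP that raises cyclic AMP in its target cells (ENSMUSG00000024256, chr17:93199017-93206537, plus strand). Its TRAP libraries held 11, 11.5, 12.4 and 18.8 CPM. Its INPUT libraries held 2.55, 2.37, 2.82 and 4.72 CPM. The groups did not overlap, and VP2.11 was the highest pool in both fractions. The log2 fold change of 2.13 ± 0.32 (SE, fold change 4.38, adjusted p = 0.000296, limma) was nearly the same size as that of Trh, but the spread over pools was narrower, 1.99 to 2.28 (SD 0.12, against an SD of 1.07 for Trh, n = 4).

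Npy had the most negative log2 fold change of the 10 genes. It encodes neuropeptide Y, an inhibitory peptide of striatal and cortical interneurons (ENSMUSG00000029819, chr6:49822710-49829507, plus strand). INPUT held 168 CPM in VP1.6, 221 in VP2.2, 131 in VP2.6 and 91.1 in VP2.11, and TRAP held 23.1, 30.8, 24.5 and 27.3 CPM. INPUT spread widely and TRAP narrowly, and the groups were far apart. Npy was 5.52-fold higher in INPUT, with a log2 fold change of -2.46 ± 0.24 (SE) and an adjusted p of 7.98e-06 (limma).

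Tac2 encodes the precursor of neurokinin B, a tachykinin (ENSMUSG00000025400, chr10:127724478-127731768, plus strand). INPUT held 47.8, 48.7, 42.7 and 34.8 CPM, and TRAP 10.5, 13.2, 8.57 and 8.06 CPM. All 4 differences lay between -2.32 and -1.88 on the log2 scale. Tac2 was 4.35-fold higher in INPUT, with a log2 fold change of -2.12 ± 0.24 (SE, adjusted p = 3.35e-05, limma).

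Sst encodes somatostatin, an inhibitory peptide of GABAergic interneurons (ENSMUSG00000004366, chr16:23889573-23890958, minus strand). INPUT held 260 CPM in VP1.6, 310 in VP2.2, 219 in VP2.6 and 124 in VP2.11, and TRAP held 49.2, 69.8, 60.0 and 97.7 CPM. VP2.11 had both the lowest INPUT and the highest TRAP level, yet the groups did not overlap. The log2 difference was -0.35 in VP2.11 and -2.40 to -1.87 in the other pools. The log2 fold change over all pools was -1.69 ± 0.29 (SE, 3.23-fold higher in INPUT, adjusted p = 0.000720, limma) and -2.14 without VP2.11.

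Vip encodes vasoactive intestinal peptide, a marker of a class of cortical interneurons (ENSMUSG00000019772, chr10:5639218-5647617, plus strand). INPUT was tightly grouped at 4.63, 4.94, 4.92 and 4.92 CPM. TRAP held 3.19, 2.2, 1.70 and 0.162 CPM. TRAP VP2.11 was far below the others, and only 221 of the 14353 listed genes were at or below the value of Vip in that library. Over all pools the log2 fold change was -2.04 ± 0.64 (SE, adjusted p = 0.0243, limma). Without VP2.11 it was -1.08 with an adjusted p of 0.0815 (limma), so the call rests on that pool, although TRAP was below INPUT in all 4 pools.

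Cartpt encodes the precursor of CART peptides, which are linked to feeding and reward (ENSMUSG00000021647, chr13:99898489-99901091, minus strand). INPUT held 24.4, 38.0, 22.5 and 18.6 CPM, and TRAP 12.3, 6.66, 11.9 and 14.6 CPM. The groups did not overlap, but VP2.2 stood apart, with the highest INPUT and the lowest TRAP level. The log2 fold change was -1.19 ± 0.32 (SE, 2.28-fold higher in INPUT, adjusted p = 0.0121, limma). Without VP2.2 it was -0.75, with an adjusted p of 0.0509 (limma).

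Cck, Nts and Crh were not called. Cck encodes cholecystokinin, a peptide of many cortical and hippocampal neurons (ENSMUSG00000032532, chr9:121489824-121495694, minus strand). Its TRAP libraries held 11, 10.3, 15.5 and 12.0 CPM and its INPUT libraries 10.7, 11.6, 8.29 and 10.6 CPM. The groups overlapped and TRAP was higher in 3 of 4 pools. Its log2 fold change was 0.24 ± 0.29 (SE), with a 95% interval of -0.39 to 0.86 and an adjusted p of 0.566 (limma).

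Nts encodes neurotensin, a peptide that modulates dopamine signalling (ENSMUSG00000019890, chr10:102481756-102490486, minus strand). TRAP held 91.7, 87.5, 87.3 and 75.1 CPM and INPUT 113, 138, 119 and 119 CPM. The groups did not overlap, and TRAP was lower in all 4 pools by 0.30 to 0.67 on the log2 scale. The log2 fold change was -0.52 ± 0.21 (SE), with a 95% interval of -0.96 to -0.08 and an adjusted p of 0.0689 (limma). Without the pool as a block the adjusted p was 0.00601 (limma), so the call depends on how the pools enter the fit.

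Crh encodes corticotropin-releasing hormone, which starts the hormonal stress response (ENSMUSG00000049796, chr3:19693401-19695396, minus strand). It was at low levels, with 0.888, 0.469, 1.95 and 2.89 CPM in TRAP and 4.26, 4.95, 2.55 and 2.35 CPM in INPUT. The groups overlapped, since VP2.11 was 0.30 higher in TRAP on the log2 scale while VP2.2 was 3.40 lower. The log2 fold change was -1.44 ± 0.62 (SE, adjusted p = 0.0912, limma). The adjusted p was 0.0499 without the block. Leaving out 1 pool moved the log2 fold change from -2.02 without VP2.11 (adjusted p = 0.0318) to -0.78 without VP2.2 (adjusted p = 0.382, limma).

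**Figure D2:**
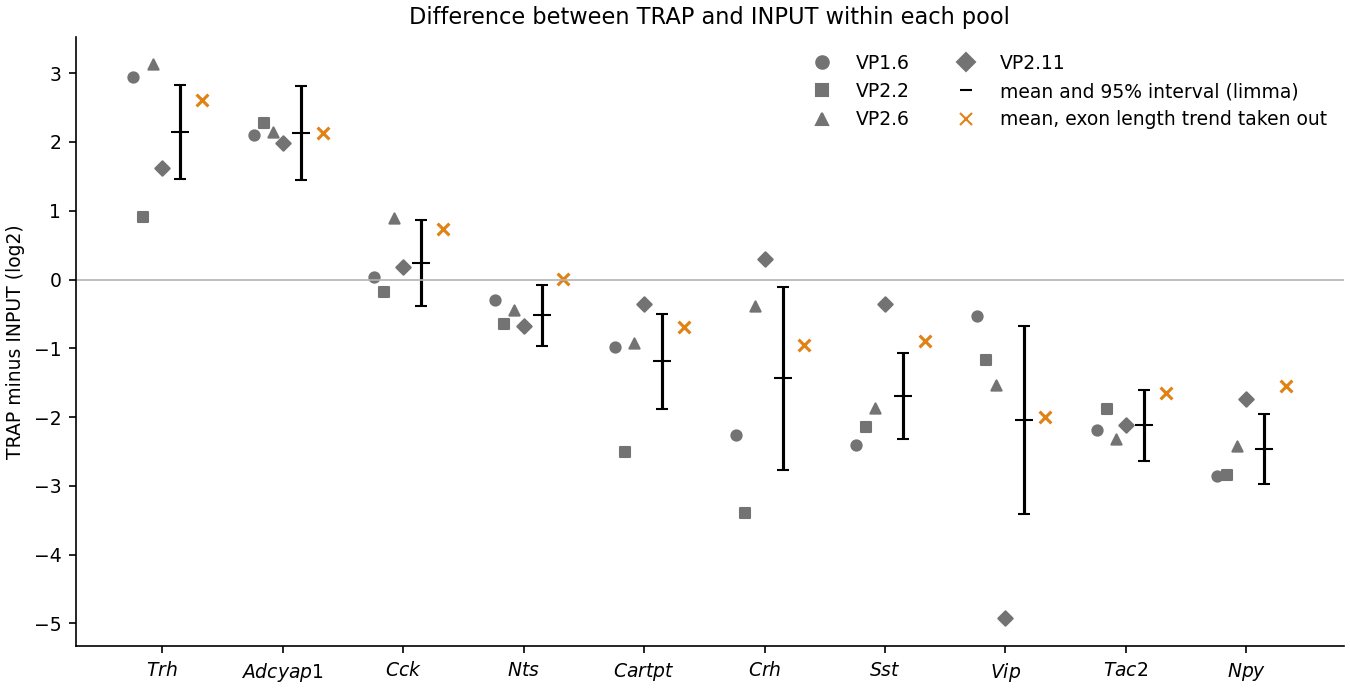
TRAP minus INPUT within each pool on the log2 scale (grey symbols, 1 per pool), with the mean and its 95% interval from limma (black) and the mean once the trend of the fold change on exon length is taken out (orange cross). The 4 differences of Adcyap1 span 1.99 to 2.28 and those of Tac2 -2.32 to -1.88, while those of Vip run from -0.54 to -4.93.

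The pools did not vary in the same way in both fractions. INPUT VP2.2 was the highest INPUT library for 8 of the 10 genes, and INPUT VP2.11 was the lowest for 5. Among TRAP libraries no pool was highest for more than 4 of the 10. VP2.11 gave the smallest difference between the fractions for 5 genes, and its median difference over the 10 was -0.35 on the log2 scale, against -1.52 in VP2.2, -0.76 in VP1.6 and -0.68 in VP2.6. The smaller gap in VP2.11 is visible above in Sst, Cartpt and Npy, and the opposite is seen in Vip.

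The mRNAs of these genes are short, and length bears on this comparison. The summed exon length was under 1500 bases in 8 of the 10 genes, from 566 bases in Npy to 1384 in Trh, against 12.7% of all genes tested. Vip has 3402 bases and Adcyap1 3777. Over all 14249 genes, longer exons went with a higher log2 fold change (Spearman's rho of 0.41, a description over genes that share libraries), whose median was -1.07 for genes under 1000 bases, -0.64 from 1000 to 1500 bases and 0.32 from 6000 bases. Once this trend was taken out, Npy, Tac2, Sst and Vip were still lower in TRAP, with log2 fold changes of -1.55, -1.65, -0.90 and -2.0, and Trh and Adcyap1 were still higher, at 2.62 and 2.12. Of the other 4, Cck went to 0.73 with an adjusted p of 0.0415 and was then called higher, Cartpt to -0.69 with an adjusted p of 0.0550, Crh to -0.95 and Nts to 0.00 (limma). Over the 10 genes, 3 were then higher and 4 lower, and the median was -0.79. Whether the trend comes from length itself was not tested.

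**Figure D3:**
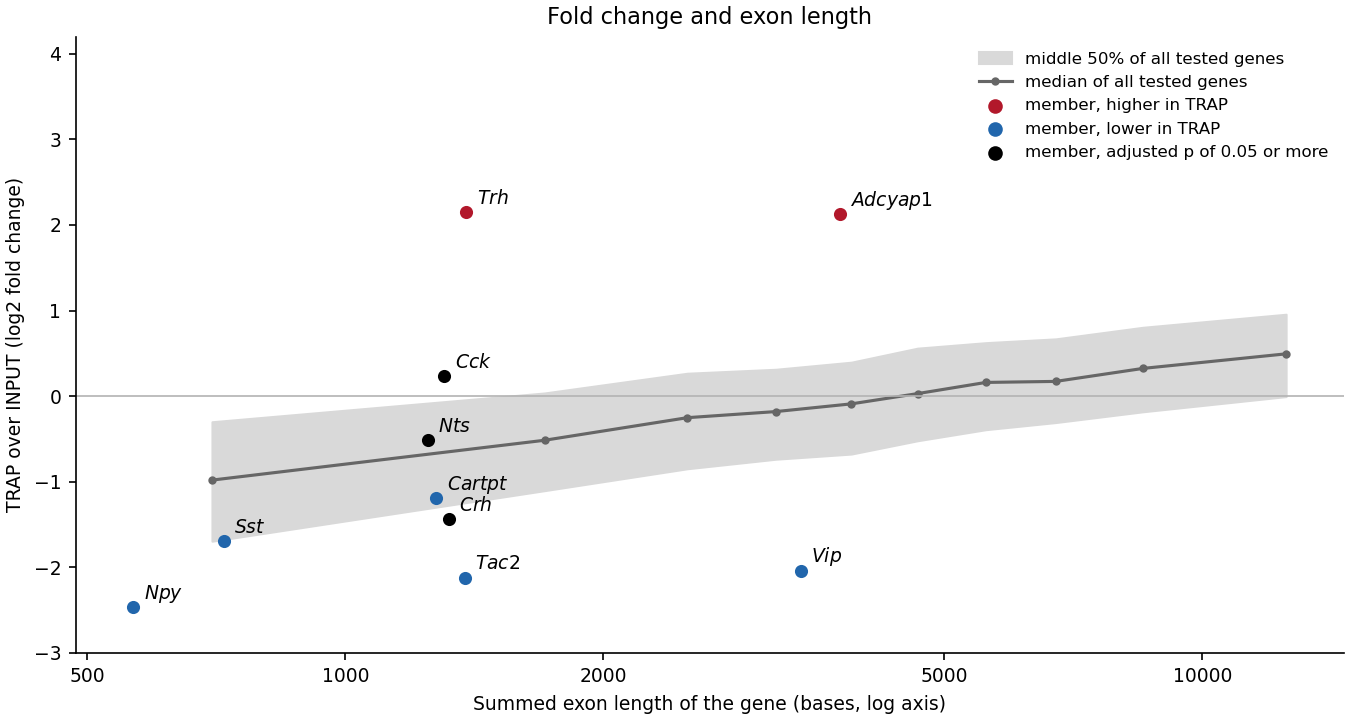
Log2 fold change of TRAP over INPUT against summed exon length in bases on a log axis. The grey line and band are the median and the middle 50% of all tested genes in 10 bins of length, and points are the precursor genes, red for higher in TRAP, blue for lower and black for an adjusted p of 0.05 or more. Trh, Adcyap1 and Cck lie above the band, Tac2, Vip and Crh below it, Nts and Cartpt inside it, and Sst at its lower edge. Npy, at 566 bases, lies to the left of the band, which starts at 699 bases.

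Levels of different genes were compared per kilobase of exon. In INPUT the order from the highest was Sst (317 ± 109 CPM per kb, mean ± SD), Npy (270 ± 97.4), Nts (98.0 ± 8.60), Tac2 (31.6 ± 4.65), Cartpt (20.3 ± 6.59), Trh (20.1 ± 7.59), Cck (7.90 ± 1.08), Crh (2.67 ± 0.97), Vip (1.43 ± 0.04) and Adcyap1 (0.825 ± 0.288). Neighbours were separated in 8 of 9 pairs, by a difference of the same sign in all 4 libraries that was larger than its SD. Cartpt and Trh were not. In TRAP the order was Sst (95.9 ± 28.8), Trh (88.8 ± 29.4), Nts (68.4 ± 5.75), Npy (46.7 ± 5.97), Cck (9.35 ± 1.77), Cartpt (8.91 ± 2.63), Tac2 (7.33 ± 1.71), Adcyap1 (3.55 ± 0.96), Crh (1.17 ± 0.82) and Vip (0.533 ± 0.371). Here only 4 of 9 pairs were separated: Nts from Npy, Npy from Cck, Tac2 from Adcyap1 and Adcyap1 from Crh. At the top of TRAP, Sst was not separated from Trh, nor Trh from Nts.

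The 10 genes together held 509 to 1037 CPM per kb in INPUT and 298 to 360 in TRAP. Trh made up 16.8% to 33.7% of that sum in TRAP and 1.69% to 5.26% in INPUT. Sst and Npy were the leading pair in every INPUT library, at 34.0% to 43.5% and 31.7% to 37.6%, and in TRAP their shares were 21.2% to 37.7% and 12.6% to 18.2%. Nts made up 16.7% to 23.5% in TRAP and 10.6% to 18.8% in INPUT, although its own level was not higher in TRAP. A share in this sum depends on the other 9 genes.

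**Figure D4:**
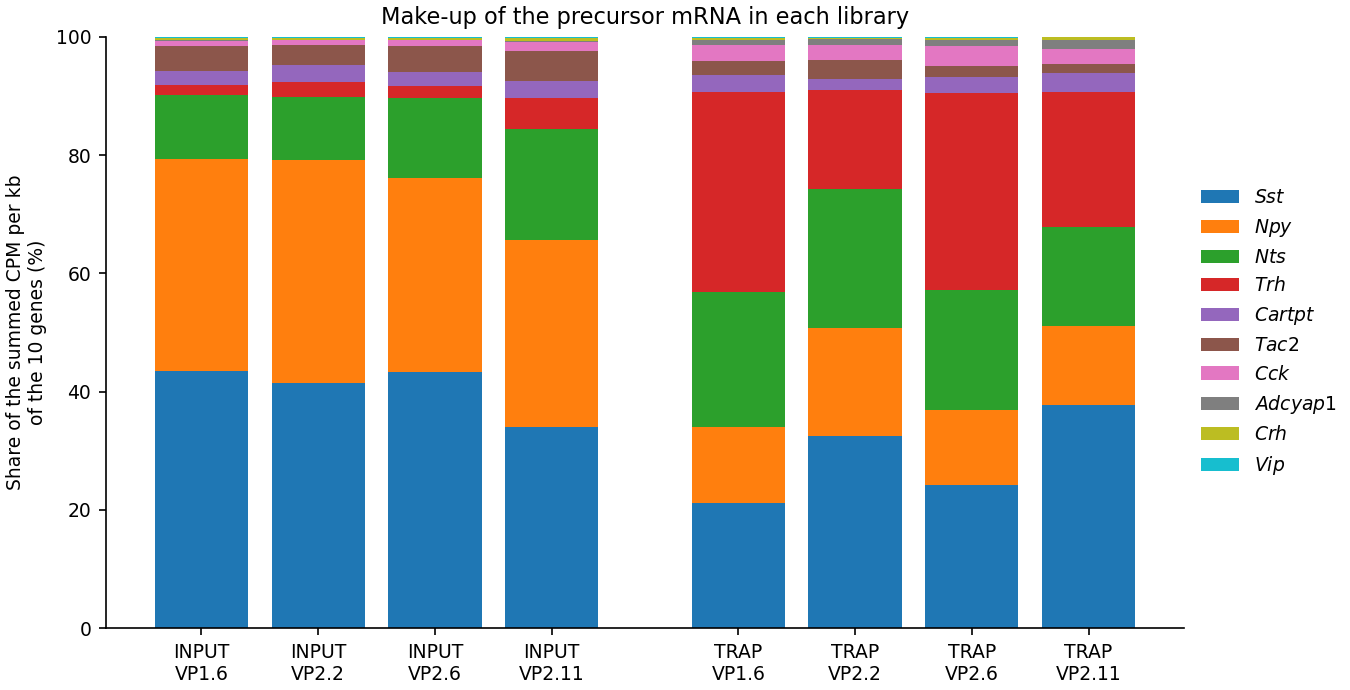
Share of each gene in the summed CPM per kb of the 10 precursor genes, in percent, for the 4 INPUT libraries (left) and the 4 TRAP libraries (right). Sst and Npy fill most of the INPUT bars, and the Trh share grows from at most 5.26% in INPUT to at least 16.8% in TRAP.

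Receptors for these peptides were listed as 22 genes, of which 16 had values and were tested. Of the 16, 3 were higher in TRAP, 1 was lower and 12 were not called, and the median log2 fold change was 0.45. The shares over all genes tested were 15.4% higher and 16.8% lower. Ntsr1, the high-affinity neurotensin receptor, was at 12.1 ± 5.36 CPM in TRAP and 3.33 ± 0.71 CPM in INPUT (log2 fold change 1.80 ± 0.33 SE, adjusted p = 0.00115, limma). Sort1, the sorting receptor sortilin that also binds neurotensin, was at 124 ± 3.89 and 57.6 ± 10.9 CPM (1.12 ± 0.21, adjusted p = 0.00140, limma). Ntsr2, the low-affinity neurotensin receptor found mostly in astrocytes, went the other way, at 4.84 ± 2.46 CPM in TRAP and 23.5 ± 4.58 CPM in INPUT (-2.38 ± 0.31, adjusted p = 9.74e-05, limma). Thus all 3 listed neurotensin receptors passed the threshold while Nts itself did not. Cckbr, the cholecystokinin receptor of the brain, was at 12.0 ± 6.47 and 5.19 ± 0.19 CPM (1.09 ± 0.34, adjusted p = 0.0235, limma). Its adjusted p was 0.107, at a log2 fold change of 0.76, without VP2.11 and 0.0516 without VP2.6. For the genes with the largest changes among the 10, the tested receptors were not called: Trhr (TRH receptor) stood at 0.45, Adcyap1r1 (PACAP receptor) at 0.51, Npy1r at 0.22, Npy2r at 0.00, Npy5r at 0.82 and Tacr3 (neurokinin B receptor) at -0.22. Crhbp, a secreted protein that binds CRH, and Trhde, an enzyme that degrades TRH, were not called either, at -0.79 and 0.67.

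Among 14 processing enzymes and granins, 7 were higher in TRAP, 1 was lower and 6 were not called, and the median log2 fold change was 0.69. As given above, 15.4% of all genes tested were higher and 16.8% lower. The granins Chgb, Chga, Scg2 and Scg3, acidic proteins of dense-core vesicles, were higher, with log2 fold changes of 2.57 ± 0.23, 1.49 ± 0.25, 1.23 ± 0.25 and 0.78 ± 0.21 (SE, adjusted p from 3.46e-06 to 0.0108, limma). Scg5 and Vgf, which are often counted with them, stood at 0.34 and 0.71 and were not called. Chgb was at 571 ± 149 CPM in TRAP and 94.1 ± 15.8 CPM in INPUT. Pcsk1 and Pcsk2, the proprotein convertases that cut precursors, were at 1.73 ± 0.33 (adjusted p = 0.00144) and 0.68 ± 0.21 (adjusted p = 0.0230, limma). Cpd, a carboxypeptidase that trims the cut ends, was at 0.91 ± 0.25 (adjusted p = 0.0124, limma). Pcsk1n, which encodes the inhibitor of the Pcsk1 enzyme, was lower, at -1.40 ± 0.35 (adjusted p = 0.00769, limma). Without VP1.6 neither Pcsk1n (-1.12, adjusted p = 0.0658) nor Scg3 (0.79, adjusted p = 0.0545, limma) was called. Cpe, the main carboxypeptidase of dense-core vesicles, was at 0.12 ± 0.22 and was not called. Pcsk2 and Cpd were not called once the trend on length was taken out (adjusted p of 0.192 and 0.0613, limma). Over the 14 genes, 7 were then higher and 2 lower, so some genes not called before were called in that fit.

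Other neuropeptide precursors were listed as 51 genes, of which 20 had values and were tested. Of these, 0 were higher in TRAP, 7 were lower and 13 were not called (limma), with 0 higher at an unadjusted p under 0.05. Among all genes tested, 15.4% were higher and 16.8% lower. The median log2 fold change of the 20 was -0.04. The opioid precursors Penk and Pdyn, which mark striatal projection neurons, stood at -1.70 ± 0.27 and -1.15 ± 0.20, and Tac1, the precursor of substance P, at -1.75 ± 0.23 (SE, adjusted p of 0.000410, 0.000893 and 0.000106, limma). Gal (galanin) was at -1.72 ± 0.27 and Pomc at -2.74 ± 0.67 (adjusted p of 0.000454 and 0.00658, limma). Apln (apelin) was at 0.798 ± 0.844 CPM in TRAP and 9.18 ± 1.25 CPM in INPUT (-4.71 ± 0.78, adjusted p = 0.000551, limma), and Prok2 (prokineticin 2) was at 0.596 ± 0.403 and 4.10 ± 2.91 CPM (-3.27 ± 0.93, adjusted p = 0.0150, limma). Apln and Pomc stayed called without any 1 pool, but ranged from -5.50 to -3.97 and from -3.63 (without VP1.6) to -1.85 (without VP2.11). The call for Prok2 was lost without VP1.6, at an adjusted p of 0.0844 and a log2 fold change of -1.79. Calls of higher precursors appeared under other settings, 1 in the fit without the block, 1 without VP2.11, 2 with array weights and 2 with the length trend taken out (Nppc and Nucb2, adjusted p of 0.0267 and 0.0409, limma), where the median of the list was 0.45.

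**Figure D5:**
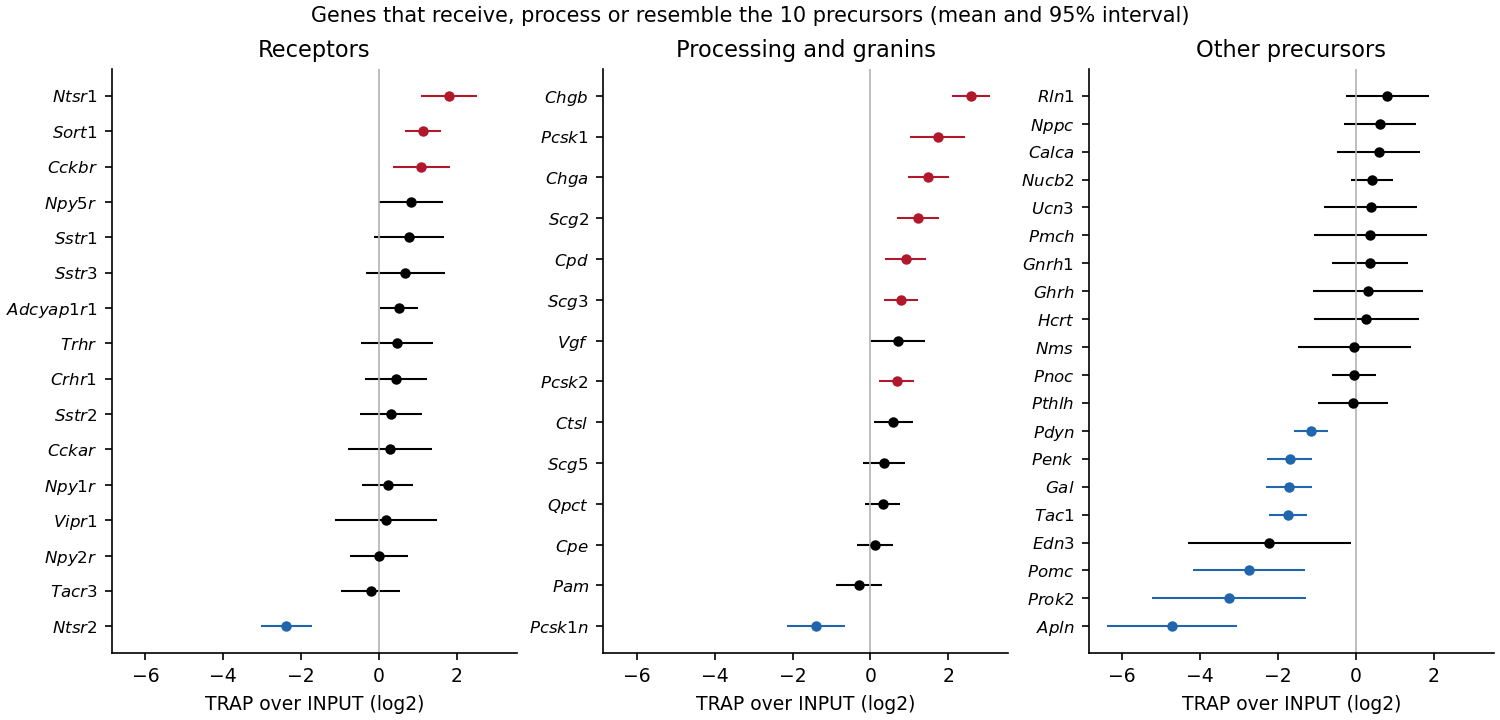
Log2 fold change of TRAP over INPUT with its 95% interval (limma) for the receptors (16 genes), the processing enzymes and granins (14 genes) and the other precursors (20 genes). Red marks genes called higher in TRAP, blue genes called lower and black those with an adjusted p of 0.05 or more, and the red points lie in the first and second of these groups.

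Markers of other cells also differed between the fractions, in both directions. Over all genes tested, 15.4% were called higher and 16.8% lower. GABAergic markers (4 genes, 1 called lower and 3 not called) had overlapping sums, 1044 to 1723 CPM in TRAP and 695 to 1539 in INPUT. TRAP was above INPUT in VP2.2 and below it in the other pools. Of 8 markers of striatal projection neurons 6 were lower in TRAP, and their summed level was 388 to 635 CPM in TRAP and 789 to 1092 in INPUT. Of 6 markers of interneurons from the medial ganglionic eminence, a class that includes SST and NPY cells, Lhx6, Sox6 and Maf were lower, and the sum was 53.8 to 102 CPM in TRAP and 108 to 163 in INPUT. The other 3 were not called, and 1 of the 6 had a log2 fold change above 0. In VP2.2 the sums were close, at 102 CPM in TRAP and 108 in INPUT. Of 5 markers of interneurons from the caudal ganglionic eminence, a class that includes VIP cells, Nr2f2 was higher and Sp8 lower. Their sums were 189 to 233 and 97.8 to 151 CPM for the 5 genes, so the sum was higher in TRAP while Vip was lower. However, 3 of the 5 had a log2 fold change below 0, and the median of the list was -0.11. All 7 markers of pallial glutamatergic neurons were higher, with sums of 197 to 319 and 41.3 to 76.8 CPM. Of 6 hypothalamic markers other than Trh, Sim1, Otp and Lhx9 were higher and Nkx2-2 lower, with sums of 29.6 to 46.3 and 11.4 to 24.2 CPM. Hcrt and Pmch, also in this list, were not called and changed sign between pools. On the log2 scale Hcrt ran from 1.77 in VP1.6 to -2.15 in VP2.11, and Pmch from 2.63 in VP2.6 to -3.05 in VP2.11. Cholinergic markers (5 genes) summed to 98.1 to 151 and 45.8 to 93.3 CPM. Yet 0 of these 5 were called higher and 1 was called lower, with a median log2 fold change of 0.15. Endothelial markers (3 genes, 1 called higher) summed to 9.68 to 37.5 and 4.37 to 7.59 CPM. Glial markers were still present in TRAP, at 900 to 1631 against 3506 to 3807 CPM for 5 oligodendrocyte genes and 22.7 to 31.5 against 79.8 to 126 for 5 microglial genes. The sums of 5 astrocyte genes overlapped, at 256 to 394 against 357 to 485 CPM, with TRAP above INPUT in VP2.2. Even so, 3 of the 5 astrocyte genes were called lower, as were 4 of the 5 oligodendrocyte and 4 of the 5 microglial genes. In these 3 lists 0 genes were called higher, and the median log2 fold changes were -1.10, -1.60 and -2.41 in that order. No marker list was at 0 in TRAP. The part of these cells in the values of the precursor genes was not tested.

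The genes whose pattern over the 8 libraries was most like that of a called precursor were found by Pearson's r of the log2 values. They were Nsdhl for Trh (0.999), Slc9a7 for Adcyap1 (0.998), Arl4a for Npy (0.998), Rab31 for Tac2 (0.999), Wfs1 for Sst (0.995), Dnajc14 for Vip (0.999) and Gstm7 for Cartpt (0.995). With 14249 genes to choose from and 8 libraries that share 4 pools, such values describe these libraries alone.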

How the data were processed

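The 4 TRAP and 4 INPUT libraries were analysed. The labels call the second fraction Input, whereas the methods speak of an unbound fraction at the sequencing step. The authors aligned reads with STAR 2.5.1a to an Ensembl mouse assembly, counted unique reads per gene with featureCounts, applied TMM scaling and deposited log2 CPM values for every library. The deposited table also holds the authors' own fold changes, p-values and a transcript count, which were not used. The 45 repeats among 14398 entries were dropped. Both libraries of VP2.11 and the INPUT library of VP1.6 carry only 3 significant digits.

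The 14249 genes that exceeded 1 CPM in 3 or more libraries entered the test on the log2 values with limma 3.58.1 (lmFit, eBayes with a trend; R 4.3.3), with the pool as a block and Benjamini-Hochberg adjustment over all of them, and an adjusted p under 0.05 was called. The pool was used because its 2 libraries share a homogenate. Across genes, same-pool libraries deviated from their fraction means with correlations of -0.745 to -0.495, and libraries of different pools with 0.05 to 0.441. The origin of the opposed deviations was not resolved. The SEs and p-values rest on the spread of TRAP minus INPUT over the 4 pools. For each gene limma moves this spread towards a trend shared by all genes. Trh and Adcyap1 thus had SEs of 0.319 and 0.322, although their SDs over pools were 1.07 and 0.12. CPM values are 2 to the power of the log2 values. Exon lengths and positions are from GENCODE M21 (GRCm38) and upstream sequences from RefSeq (GRCm38.p6), which gave windows for 9 of the 10 genes. Depth was estimated from differences between low values, and the procedure was adjusted until it recovered simulated depths. The fit was tested on simulated data. Members and lists were chosen with earlier results of these data known. Genes named outside the 10 were Slc17a6, Slc32a1, Gad1 and Gad2, and in the other lists at most the 6 called genes with the largest changes per direction. Others, among them Pdyn, Pcsk2, Cpe, the uncalled receptors and the marker genes, were named after their values were seen. The trend on exon length was a lowess fit of TRAP minus INPUT over all tested genes within each pool, and its centred value was subtracted from each gene's difference.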

Additional observations from a re-analysis of the deposited data

Results flagged for a closer look

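Within groups of 4 libraries, a value was singled out where its gap to the nearest other value divided by the range of the group was above the 95% critical value of Dixon's test. Chance gives about 1 in 20 groups, or 3.60 of the 72 groups examined, and 9 were found. Only 1 concerned a member of the 10: Vip in INPUT VP1.6 was at 2.21 on the log2 scale against 2.30 in the other 3 libraries, a small difference in a very narrow group. The far lower Vip value of TRAP VP2.11 did not pass this criterion.

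Among the related genes, all on the log2 scale, Prok2 was at -4.60 in TRAP VP1.6, where the others were at -0.82 to -0.09, and at 3.08 in INPUT VP1.6, where the others were at 1.27 to 1.49. Ntsr1 and Cckbr were at 4.33 and 4.44 in TRAP VP2.11, above ranges of 3.19 to 3.31 and of 3.06 to 3.22. In INPUT VP2.11, Tac1 was at 8.10 against 8.72 to 8.73 elsewhere and Chgb at 6.88 against 6.41 to 6.46. In INPUT VP2.2, Gad1 was at 8.04 against 9.18 to 9.30 and Cpd at 3.79 against 4.41 to 4.44. The cause of these values was not tested.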

How the results depend on the processing

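Each result was recomputed under 13 alternatives to the fit. The direction held in every one that tested them for the 7 called genes of the 10 (Vip and Crh were not over 1 CPM in all 8 libraries), and Trh, Adcyap1, Npy, Tac2 and Sst also stayed called throughout. The call for Vip was lost with quantile normalization, with eBayes without a trend and without VP2.11, and that for Cartpt with the length trend taken out, with eBayes without a trend and without VP2.2. Without the pool as a block, 9 of the 10 genes (Nts and Crh added, Cck not) and 6830 of all genes were called, against 7 and 4592 with it. Nts was also called with array weights (adjusted p = 0.0488) and quantile normalization (0.0194, limma), and moved to 0.00044 with the length trend taken out, where Gad1 moved to -0.025. The other precursors had 4 calls when over 1 CPM in all 8 libraries was required, and processing enzymes and granins 5 when a change of 1 or more on the log2 scale in either direction was also required. Leaving out 1 pool gave 3232 to 4156 calls over all genes, 6 to 7 among the 10, 6 to 9 among other precursors, 3 to 4 among receptors and 5 to 11 among processing enzymes and granins, where the lowest was without VP1.6. It gave -0.15 to 0.50 for Gad1 and -0.49 to 0.23 for Gad2 (0.04 without VP2.6 and 0.03 without VP2.11). The cause of these changes was not tested. With the longest transcript in place of summed exons, 11 of 18 neighbouring pairs were separated, against 12, and Tac2 and Cartpt changed places in TRAP. Crh and Vip in INPUT were then not separated (log2 difference 0.41, SD 0.55). Low genes such as Vip and Crh are limited by depth, which is unknown in VP1.6 and VP2.11.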
